A study of Mus musculus with 19 samples.

Results

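The cytosolic ribosomal protein genes were examined in RNA-seq libraries from brain tissue of mice with and without the gene for the brain fatty acid binding protein Fabp7. They were found by name: symbols that begin with Rpl or Rps and a number, the stalk genes Rplp0, Rplp1 and Rplp2, and Rpsa, without ribosomal S6 kinases and without pseudogenes. The rule took 88 of 24394 genes, 35 named for the small (40S) and 53 for the large (60S) subunit. It left out 10 kinase names and 6 pseudogene names. Of the 88 genes, 77 are canonical subunits (31 small, 46 large), 7 are paralogs (Rpl3l, Rpl10l, Rpl22l1, Rpl36al, Rpl39l, Rps4l and Rps27l), 2 are retrogene copies (Rpl37rt and Rps27rt), and Rpl7l1 and Rps19bp1 carry a ribosomal name but encode other proteins.

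The 19 libraries came from male C57BL/6NJ mice in 4 groups: KO MEST (n = 5), WT MEST (n = 5), KO sham (n = 4) and WT sham (n = 5). KO mice lack Fabp7 in all cells, and Fabp7 was at or near 0 in every KO library. MEST (maximal electroshock seizure threshold) mice received a daily shock through ear clips, starting at 20 mA and raised in steps of 2 mA until the hind limbs extended tonically. Sham mice were handled without a shock. Tissue was a block of hippocampus with cortex from 1 hemisphere, taken at zeitgeber time 20, and in such bulk tissue fewer cells of a type and less RNA per cell cannot be told apart. The study's methods describe cortical tissue and a common, younger age, and the sample labels are followed here. By the labels, ages were 18.9 to 19.4 weeks in KO MEST, 17.4 to 18.0 in WT MEST, 17.3 to 17.9 in KO sham and 15.9 to 16.3 in WT sham mice. Ages did not overlap in any pair of groups compared here, so age and group cannot be told apart in those comparisons. Libraries held 27.6 to 51.7 M reads in genes. Levels are given in CPM, the reads of a gene per M reads in genes of the same library.

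The cytosolic ribosome joins 1 protein of nearly every canonical gene with ribosomal RNA, and cells make the proteins in near-equal amounts. Many of these mRNAs begin with a C followed by a run of pyrimidines, the terminal oligopyrimidine (TOP) run, through which mTOR signalling controls their translation. In neurons a share of these mRNAs is also found in dendrites and axons. The level of an mRNA measured here is therefore not a measure of ribosome number or of translation.

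A TOP run, counted as a C on the transcribed strand at the annotated start and then at least 4 bases that are C or T, was found at the RefSeq start of 14 of the 67 members with a promoter entry (20.9%), against 2.81% of 17224 genes in the tables. Within 5 bases of the start it was found for 44.8% of the members and 21.7% of all genes. The windows below (RefSeq, build GRCm38.p6, transcribed strand, with 10 bases before the annotated start) belong to genes whose levels are described further on, with the run in capitals where there was one within 5 bases.
Rps6 (chr4:86857353-86857377, minus strand): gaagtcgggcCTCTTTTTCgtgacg
Rps10 (chr17:27635230-27635254, minus strand): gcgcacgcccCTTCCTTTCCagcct
Rpl38 (chr11:114668570-114668594, plus strand): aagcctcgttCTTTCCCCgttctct
Rpl28 (chr7:4792955-4792979, plus strand): tctcgtgtctCTCTTTCCgtctccg
Rps27 (chr3:90213634-90213658, minus strand): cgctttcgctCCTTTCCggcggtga
Rps27l (chr9:66946076-66946100, plus strand): cctccccgccgCCTCTatcccggaa
Rpl22l1 (chr3:28805498-28805522, plus strand): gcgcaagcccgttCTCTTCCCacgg
Rpl41 (chr10:128549154-128549178, minus strand): gggccggctcggaagtgacgacacc
Rps13 (chr7:116334176-116334200, minus strand): caaacgtcggtgagtggcgtcactt
The first 5 of these have the run at the start itself, in Rps27l and Rpl22l1 it begins 1 and 3 bases after it, and the last 2 have none in the window. Runs in members were 5 to 17 bases long. Of the 13 tested members with a run at the annotated start, 5 were higher and 0 lower in KO sham than in WT sham tissue, and of the 50 with a promoter entry and no such run 27 were higher and 1 lower, where 8.58% and 6.83% of all genes were. In KO MEST over WT MEST 3 were higher and 2 lower with a run, and 3 and 7 without (4.94% and 4.92% of all genes). In WT MEST over WT sham 4 were higher and 0 lower with a run, and 28 and 5 of 49 without (12.3% and 12.2% of all genes). In KO MEST over KO sham 0 passed with a run, and 0 were higher and 4 lower without (0.762% and 0.601% of all genes). In the difference of seizure effects 0 were higher and 7 lower with a run, and 2 and 24 without (8.85% and 9.68% of all genes). The difference between members with and without a run was not tested. Starts were taken from annotation and not measured in this tissue, so a window without a run does not show that the mRNA lacks one.

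Reads of a ribosomal protein gene can also match its processed copies elsewhere in the genome, and the handling of such reads is not given in the sources used here. Of the 100-base windows of each principal transcript (GENCODE vM21, build GRCm38), the share found in no other annotated gene was at least 80% for 24 members and lower for 64. Levels of the others may hold reads of copies or lack reads that match several places. Rps27, a zinc-binding protein of the 40S subunit, had 1.63% of its windows to itself, and its retrogene copy Rps27rt was listed at 0 in all 19 libraries. Rpl26 was also listed at 0 throughout, and Rpl30 and Rpl34 lay at 0.0330 to 0.916 and 0.129 to 1.34 CPM, though every ribosome holds these 60S proteins. These 4 canonical genes averaged under 10 CPM, and their values are no measure of their mRNA.

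Per kb of transcript, the canonical genes had a median of 143.5 CPM (quartiles 103 and 206, n = 77). Medians were 156 CPM per kb for the 31 small and 139 for the 46 large subunit genes. The highest small subunit gene was Rps29, which holds a zinc finger, with 680.5 CPM per kb, and the highest large subunit gene was Rplp1, an acidic protein of the stalk that recruits translation factors, with 514 CPM per kb. The 17 canonical genes with at least 80% unique windows had a median of 155 CPM per kb and the other 60 one of 142.

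**Figure D1:**
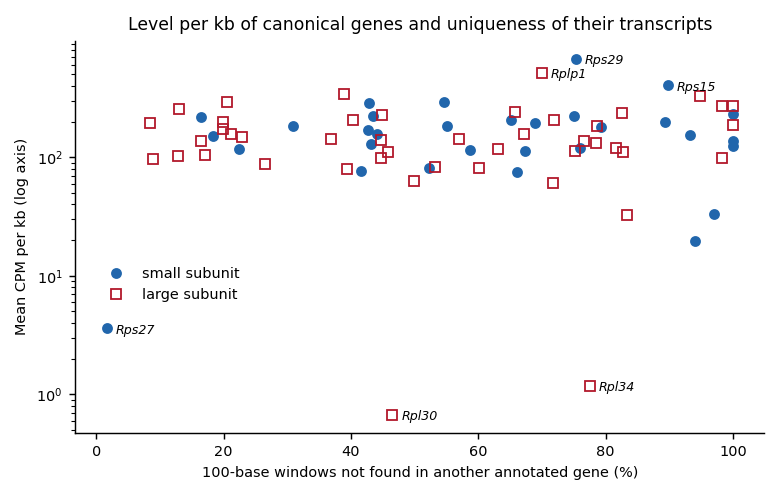
Mean level of each canonical gene over 19 libraries, in CPM per kb of principal transcript (log axis), against the share of its 100-base windows found in no other annotated gene. Genes of both subunits spread around a median of 143.5 CPM per kb, with quartiles of 103 and 206. Rpl30, Rpl34 and Rps27 lie far below the others, and Rpl26, at 0, is not drawn.

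Among the 79 members that averaged at least 10 CPM, the WT sham group had the lowest of the 4 group means in 51 (64.6%, against 34.2% of the 10226 genes at that level) and KO sham the highest in 44 (55.7%, against 20.4%). In 25 members all 5 WT sham libraries lay below all 14 others, which held for 5.41% of all genes. In 1 member, Rps29, the WT sham libraries all lay above (1.27% of the 79 members, against 2.96% of all genes). The WT sham libraries also stood apart over all genes on the first principal component, at 20.5 to 30.98 against -14.2 to -1.50 for the others. KO sham against WT sham and WT MEST against WT sham share these 5 libraries, and their fold changes are not independent of each other. What set the WT sham mice apart, younger age included, cannot be told apart from genotype and from shock in the comparisons that use them.

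**Figure D2:**
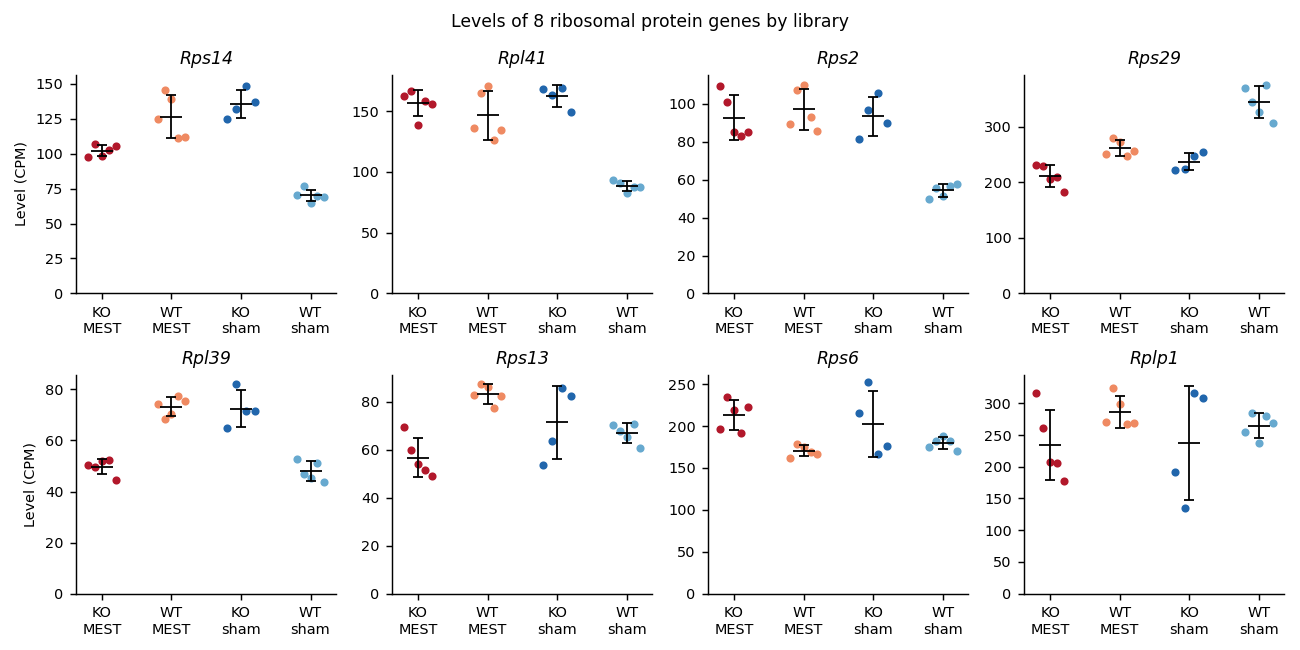
Level in CPM (vertical axis, from 0) of 8 ribosomal protein genes in each library (points) of the KO MEST, WT MEST, KO sham and WT sham groups, with the mean and SD (bars). Rps14, Rpl41 and Rps2 are lowest and Rps29 is highest in WT sham, Rpl39 is as low in KO MEST as in WT sham, and Rplp1 and Rps13 of the KO sham group fall into a low and a high pair.

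The effect of Fabp7 loss without a seizure was read from KO sham against WT sham tissue. Of 84 members tested, 42 were higher (50.0%), where 8.58% of the 16182 genes tested were, and 2 were lower (2.38%), where 6.83% of all genes were. The members' median log2 fold change was 0.24, and that of all genes -0.01. Both subunits moved: 17 of 34 small and 25 of 50 large subunit genes were higher, with medians of 0.22 and 0.25. In 39 members every KO sham library lay above every WT sham library, as in 9.67% of all genes, and in 2 members every one lay below, as in 7.16%. With KO sham libraries 2 and 3 left out, 41 members were higher and 6 lower.

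Rps14, a 40S protein at the platform of the subunit, had 125, 132, 149 and 137 CPM in KO sham libraries, against 70.3, 76.6, 65.0, 69.7 and 68.9 CPM in WT sham libraries. The groups were far apart, with a log2 fold change of 0.95 (SE 0.06, limma, adjusted p = 2.91e-07). Rpl41, a very short basic peptide of the 60S subunit, had 169, 163, 169 and 149 CPM in KO sham and 93.2, 91.2, 82.9, 87.6 and 87.9 CPM in WT sham libraries. It rose by 0.87 on the log2 scale (SE 0.06, limma, adjusted p = 2.91e-07). Rps2, near the mRNA entry of the 40S subunit, had 81.4, 97.0, 106 and 89.7 CPM in KO sham and 50.0, 55.7, 51.6, 56.8 and 57.6 CPM in WT sham libraries, again without overlap (log2 fold change 0.78, SE 0.08, limma, adjusted p = 7.62e-06). Rpl18, of the 60S subunit, averaged 76.4 ± 4.85 CPM in KO sham and 46.01 ± 1.45 CPM in WT sham tissue (SD, n = 4 and 5). Rpl38, which in mouse embryos is needed for translation of a subset of Hox mRNAs, averaged 60.5 ± 4.35 and 38.5 ± 2.77 CPM in the same order of groups. Rps27a, made as a fusion with ubiquitin, had 139, 217, 116 and 116 CPM in KO sham and 74.1 to 93.7 CPM in WT sham libraries. Its adjusted p from limma was 0.0323, and it did not pass without KO sham replicate 2 or without any of the WT sham libraries in turn (highest adjusted p 0.0662).

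The 2 members that fell were Rps29 and Rps26, both zinc-binding 40S proteins. Rps29 had 223, 225, 248 and 255 CPM in KO sham libraries, against 371, 344, 327, 376 and 307 CPM in WT sham libraries, a log2 fold change of -0.54 (SE 0.07, limma, adjusted p = 9e-05). Rps26, whose protein lies at the mRNA exit, averaged 73.1 ± 5.78 CPM in KO sham and 90.8 ± 6.45 CPM in WT sham tissue (log2 fold change -0.31, SE 0.07, limma, adjusted p = 0.00564). Rplp0, the core of the stalk, averaged 161 ± 11.04 CPM in KO sham and 162 ± 9.10 CPM in WT sham tissue, and its log2 fold change was -0.01 (SE 0.06). Fold changes of all genes had a Spearman correlation of -0.20 with exonic length, and most members are short. After each library was corrected for a smooth trend on exonic length the members' median was 0.16. Without that correction, 36 to 44 members were higher with each library left out in turn.

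**Figure D3:**
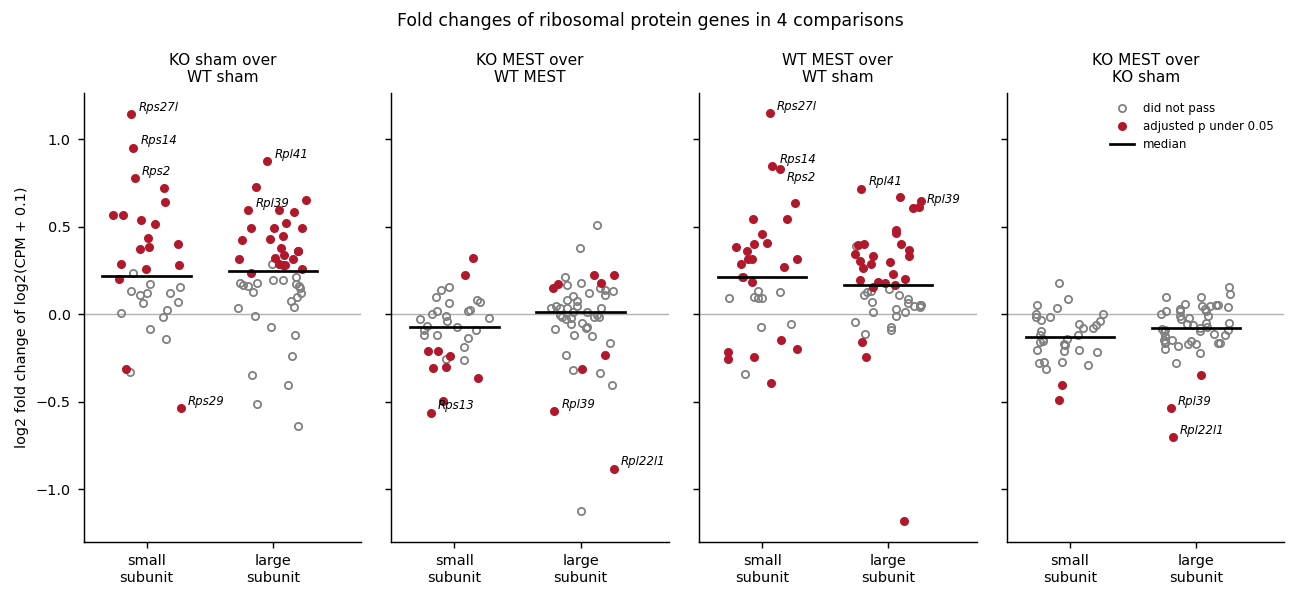
log2 fold change (vertical axis, on log2 of CPM plus 0.1) of each tested member in KO sham over WT sham, KO MEST over WT MEST, WT MEST over WT sham and KO MEST over KO sham, split by the subunit in its name. Filled points passed an adjusted p of 0.05, open points did not, and lines are medians: these lie at 0.22 and 0.25 in the first comparison and at -0.13 and -0.08 in the last.

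Genotype after seizures was read from KO MEST against WT MEST tissue, which uses no WT sham library. Here the members did not shift as a group: 7 of 84 were higher (8.33%), where 4.94% of all 16061 genes were, and 12 were lower (14.3%), where 4.92% were. Their median log2 fold change was -0.02, and that of all genes -0.01. Among the small subunit genes 2 were higher and 8 lower of 34, with a median of -0.07, and among the large subunit genes 5 were higher and 4 lower of 50, with a median of 0.01. Groups lay apart in 6 members with KO MEST above and in 11 with KO MEST below, as they did in 4.33% and 4.2% of all genes.

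Rpl22l1 fell the most of the members that passed. It is the paralog of Rpl22, a 60S protein with RNA-binding functions outside the ribosome that in mice represses Rpl22l1. Levels of Rpl22l1 were 28.3, 25.6, 30.1, 29.4 and 24.2 CPM in KO MEST and 51.5, 46.7, 49.6, 50.6 and 55.1 CPM in WT MEST libraries, a gap wider than either group (log2 fold change -0.88, SE 0.07, limma, adjusted p = 9.65e-07). Rpl39, a small protein that lines the exit tunnel of the 60S subunit, had 50.5, 49.7, 51.8, 52.4 and 44.6 CPM in KO MEST and 74.2, 68.4, 70.4, 77.4 and 75.5 CPM in WT MEST libraries. This was a log2 fold change of -0.56 (SE 0.06, limma, adjusted p = 3.42e-05), and 98.2% of its windows are unique. Rps13, of the 40S subunit, had 69.5, 59.7, 54.1, 51.5 and 48.8 CPM in KO MEST and 82.9, 87.5, 86.2, 77.2 and 82.4 CPM in WT MEST libraries (log2 fold change -0.56, SE 0.08, limma, adjusted p = 0.00111). Rps10, a 40S protein of the head, averaged 64.7 ± 6.21 CPM in KO MEST and 83.1 ± 4.97 CPM in WT MEST tissue, and its exons are shared with an annotated read-through gene. Rpl9, of the 60S subunit, averaged 168 ± 10.1 and 209 ± 5.65 CPM, and Rps29 212 ± 19.5 and 262 ± 14.1 CPM, in KO MEST and in WT MEST (SD, n = 5 each). Rpl9 had 12.99% and Rps13 22.4% unique windows. Rps13 and Rps10 also differed within the KO sham group. Rps13 had 53.8 to 63.4 CPM in KO sham libraries 2 and 3 and 82.4 to 85.7 CPM in 4 and 5. Rps10 had 63.4 to 63.7 CPM in KO sham libraries 2 and 3 and 83.3 to 89.8 CPM in 4 and 5.

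Rps6, the 40S protein phosphorylated by S6 kinases downstream of mTOR, had the largest increase of those that passed. It had 197, 234, 219, 192 and 223 CPM in KO MEST and 162, 179, 175, 169 and 167 CPM in WT MEST libraries, without overlap (log2 fold change 0.32, SE 0.06, limma, adjusted p = 0.00413, 16.4% unique windows). Within KO sham, Rps6 had 216 to 253 CPM in libraries 2 and 3 and 167 to 176 CPM in 4 and 5. Whether the KO MEST values hold a split of this kind was not tested. Rps24, a 40S protein with spliced isoforms, averaged 329 ± 14.5 CPM in KO MEST and 282 ± 15.4 CPM in WT MEST tissue, and did not pass with all 19 libraries in 1 fit (adjusted p = 0.189). Rpl4, which lines the exit tunnel, averaged 529 ± 19.4 and 470.0 ± 20.5 CPM in KO MEST and in WT MEST. Rpl28, Rpl7a and Rpl35, all of the 60S subunit, had log2 fold changes of 0.22, 0.22 and 0.18, with adjusted p-values of 0.0281, 0.0324 and 0.0333 from limma. Each of Rpl28, Rpl7a, Rpl35 and Rpl4 lost its call in 5 to 10 of 25 alternatives, mostly those with 1 library left out, and the count of higher members then ran from 2 to 8: it was 2 without KO MEST 2, WT MEST 1 or WT MEST 4, 3 without KO MEST 3 or 5, and 4 without KO MEST 1 or WT MEST 5.

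Over all genes, fold changes of KO MEST over WT MEST had a Spearman correlation of 0.22 with the GC content of the transcript and -0.08 with exonic length. Over the 84 members the correlations were -0.02 with GC content and 0.39 with the length of the principal transcript. Of 6 oligodendrocyte markers, 3 were lower in KO MEST than in WT MEST and none was higher, where 4.92% and 4.94% of all genes were. The summed level of the 6 was 5825 to 6375 CPM in KO MEST and 6008 to 8271 CPM in WT MEST libraries. Of the other lists, 2 of 6 neuron markers were higher and 1 lower, 1 of 6 microglia markers higher and 1 lower, 1 of 5 meningeal fibroblast markers higher, and 1 of 5 endothelial and 1 of 5 choroid plexus markers lower. The part of these in the members' changes was not tested.

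The effect of seizures in mice with Fabp7 was read from WT MEST against WT sham tissue. Of 83 members tested, 43 were higher (51.8%), where 12.3% of all 16080 genes were, and 9 were lower (10.8%), where 12.2% were. Their median log2 fold change was 0.18, and that of all genes -0.004. In the small subunit 18 of 34 were higher and 6 lower (median 0.21), and in the large subunit 25 of 49 were higher and 3 lower (median 0.16). Groups lay apart in 37 members with WT MEST above and in 6 with WT MEST below, as they did in 8.77% and 7.95% of all genes.

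Rps14 had 125, 145, 139, 111 and 112 CPM in WT MEST libraries, against the WT sham values of 65.0 to 76.6 CPM given above, and rose by 0.84 on the log2 scale (SE 0.07, limma, adjusted p = 3.04e-08). Rps2 averaged 97.1 ± 10.99 CPM in WT MEST and 54.3 ± 3.32 CPM in WT sham tissue, and Rpl41 147 ± 20.0 and 88.6 ± 3.93 CPM. Rpl18 averaged 72.1 ± 6.49 CPM in WT MEST and 46.01 ± 1.45 CPM in WT sham tissue. Rps19, a 40S protein whose human gene is mutated in Diamond-Blackfan anaemia, averaged 101 ± 8.11 and 64.8 ± 3.87 CPM, and Rpl37rt, a retrogene copy that shares windows with Rpl37, 15.4 ± 1.47 and 9.77 ± 1.95 CPM. The WT MEST and WT sham libraries did not overlap in any of these 6 genes.

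Among members with a mean of at least 10 CPM, those that fell in WT MEST were again led by Rps29. It had 251, 280, 273, 248 and 257 CPM in WT MEST libraries against 307 to 376 CPM in WT sham libraries (log2 fold change -0.40, SE 0.06, limma, adjusted p = 2.42e-05). Rpl30, whose values are no measure of its mRNA, is also among the lower members, with a log2 fold change of -1.18. Rpl23, a 60S protein, averaged 132 ± 3.21 CPM in WT MEST and 157 ± 14.9 CPM in WT sham tissue. Rpsa, a 40S protein also known as the laminin receptor, had 315, 373, 357, 333 and 341 CPM in WT MEST and 369, 411, 422, 469 and 367 CPM in WT sham libraries. Its groups overlapped, with a log2 fold change of -0.24 (SE 0.06, limma, adjusted p = 0.0061). Rps24 and Rps26 had log2 fold changes of -0.22 and -0.20 (adjusted p = 0.00425 and 0.0225 from limma), Rps24 did not pass with all 19 libraries in 1 fit (adjusted p = 0.136), and Rps26 did not in 5 of 25 alternatives (highest 0.0724). The count of lower members was 5 without WT MEST replicate 4 and 5 without WT sham replicate 4.

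In KO mice the seizures were read from KO MEST against KO sham tissue. No member was higher, where 0.762% of all 16147 genes were, and 5 of 84 were lower (5.95%), where 0.601% were. In 10 members every KO MEST library lay below every KO sham library, as in 4.56% of all genes. The members' median log2 fold change was -0.09, and that of all genes -0.01. Of the members' 84 values, 64 were below 0. The 5 were Rpl22l1, Rpl39, Rps27l, Rps14 and Rpl9. Without KO sham libraries 2 and 3, the calls were 1 higher and 6 lower, DESeq2 on the recovered reads called 8 lower and 0 higher, and edgeR 5 lower and 0 higher. At an unadjusted p under 0.05 limma had 23 lower and 0 higher members, where 9.72% of all genes were lower and 8.14% higher. The count of lower members was 3 without any 1 of KO MEST 1, 2, 3 and 5 or KO sham 2, 4 and 5.

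Rpl22l1 had 37.2, 47.9, 46.2 and 48.6 CPM in KO sham libraries, above all of the KO MEST values of 24.2 to 30.1 CPM (log2 fold change of KO MEST over KO sham -0.70, SE 0.09, limma, adjusted p = 0.00524). Rpl39 had 44.6 to 52.4 CPM in KO MEST, against 64.7, 82.1, 71.4 and 71.5 CPM in KO sham libraries (log2 fold change -0.54, SE 0.07, limma, adjusted p = 0.00583). For Rps14 the KO MEST libraries held 97.6, 107, 98.5, 103 and 106 CPM and the KO sham libraries 125 to 149 CPM, a log2 fold change of -0.41 (SE 0.06, limma, adjusted p = 0.0109). Rpl9 averaged 168 ± 10.1 CPM in KO MEST and 215 ± 23.2 CPM in KO sham tissue (SD, n = 5 and 4). Its adjusted p of 0.0375 from limma did not hold in 10 of 25 alternatives (highest 0.107). Of the 6 oligodendrocyte markers 3 were lower here as well and 0 higher, where 0.601% and 0.762% of all genes were. All 6 summed to 5825 to 6375 CPM in KO MEST and 6523 to 7062 CPM in KO sham libraries. Of 6 neuron markers 1 was higher, of 5 meningeal fibroblast markers 1 was higher and 1 lower, and of 5 endothelial markers 1 was lower. The part of these in the members' changes was not tested.

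Whether seizures acted differently in the 2 genotypes was tested as a difference of log2 fold changes, KO minus WT, in 1 fit of the 19 libraries. Of 84 members, 41 had a lower response in KO mice (48.8%), where 9.68% of all 16596 genes did, and 2 a higher one (2.38%), where 8.85% did. The members' median difference was -0.27, and that of all genes -0.01. In the small subunit 19 of 34 were lower and 2 higher (median -0.33), and in the large subunit 22 of 50 were lower and 0 higher (median -0.21). The 5 WT sham libraries enter this test too. Without KO sham libraries 2 and 3, 35 members were lower and 6 higher, and without library 3 alone 6 were higher. That count was 1 without any 1 of 11 other libraries, KO, WT, MEST and sham among them.

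For Rps14 the difference was -1.25 (SE 0.10, limma, adjusted p = 2.17e-08): the log2 fold change with seizures was -0.41 in KO mice and 0.84 in WT mice. Rpl39 gave -1.15 (SE 0.10), from -0.54 in KO mice and 0.61 in WT mice, and Rpl22l1 gave -1.05 (SE 0.11), from -0.70 in KO mice and 0.34 in WT mice. In these 3 genes the response had opposite signs in the 2 genotypes, and each passed in both. Rpl38, Rps19 and Rps2 had differences of -0.88, -0.85 and -0.85, with responses in KO mice of -0.28, -0.21 and -0.01 that did not pass. Rps26 and Rpsa were the 2 members with a higher response in KO mice, by 0.38 (SE 0.11) and 0.29 (SE 0.10), with adjusted p-values of 0.0193 and 0.0435 from limma. Rpsa did not pass in 13 of 34 alternatives, and Rps26 did not without KO sham libraries 2 and 3 (adjusted p = 0.101).

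Across the pairwise comparisons, 25 members passed in none. They include all 3 stalk genes, Rpl22 and the paralogs Rpl36al and Rps4l. Rps27 and Rpl34 are among the 25 as well, but their values are no measure of their mRNA. Rplp0 averaged 168 ± 18.8 CPM in KO MEST, 163 ± 12.8 in WT MEST, 161 ± 11.04 in KO sham and 162 ± 9.10 in WT sham tissue. Rpl36al, whose coding sequence is 87.7% identical to that of Rpl36a, averaged 42.2 ± 3.08, 40.8 ± 2.64, 44.7 ± 6.46 and 39.3 ± 2.14 CPM in the same groups. Rps4l averaged 13.8 ± 1.84, 13.7 ± 2.46, 14.4 ± 2.00 and 12.7 ± 0.846 CPM, and Rpl7l1, a factor of 60S assembly, 50.2 ± 2.36, 46.1 ± 1.20, 49.7 ± 3.0 and 44.0 ± 0.762 CPM. Rpl3l, a paralog known from striated muscle, was at most 0.523 CPM in any library, and Rpl39l and Rpl10l, known from testis, lay at no more than 0.217 CPM and at 0.

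In the pairs Rpl22l1 with Rpl22 and Rps27l with Rps27 the paralog passed in several comparisons and its partner in none. For Rps27, whose values are no measure of its mRNA, this does not show a steady level. Rpl22l1 and Rpl22 share 68.2% of their aligned coding bases. Rpl22 averaged 84.5 ± 1.30 CPM in KO MEST, 89.3 ± 1.93 in WT MEST, 94.7 ± 6.87 in KO sham and 90.0 ± 5.82 in WT sham tissue, and none of its comparisons passed. Reads of Rpl22l1 per read of Rpl22 were 0.329, 0.305, 0.361, 0.343 and 0.291 in KO MEST libraries, against 0.571, 0.515, 0.550, 0.588 and 0.616 in WT MEST libraries. In KO sham libraries the ratio was 0.387, 0.462, 0.524 and 0.535, and in WT sham libraries 0.413, 0.457, 0.502, 0.408 and 0.449. KO MEST therefore lay below every other library. The mean log2 ratio differed by -0.80 between KO MEST and WT MEST (two-sided exact permutation test, p = 0.00794, adjusted over 8 tests 0.0212), by -0.54 between KO MEST and KO sham (exact p = 0.0159, adjusted 0.0254) and by 0.35 between WT MEST and WT sham (exact p = 0.00794, adjusted 0.0212). Between KO sham and WT sham it differed by 0.09 (exact p = 0.429, adjusted 0.54). With 5 against 5 libraries, 0.00794 is the smallest p this test can give, and with 4 against 5 it is 0.0159.

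Rps27l, whose coding sequence is 76.2% identical to that of Rps27 and which is a target of p53 in human cells, had 5.55, 7.01, 5.55, 7.11 and 5.82 CPM in KO MEST and 7.35, 9.19, 9.09, 8.77 and 9.41 CPM in WT MEST libraries. It had 8.46, 8.48, 9.08 and 8.77 CPM in KO sham and 5.33, 4.22, 3.95, 3.02 and 3.28 CPM in WT sham libraries. No 2 of the groups that were compared overlapped. All its windows are unique. Its log2 fold change was 1.14 in KO sham over WT sham (SE 0.15, limma, adjusted p = 0.000134) and 1.15 in WT MEST over WT sham (SE 0.14, limma, adjusted p = 4.56e-06), the largest of any member in each. KO MEST was lower than WT MEST by a log2 fold change of -0.49 (SE 0.11, limma, adjusted p = 0.00939), and KO MEST than KO sham by -0.49 (SE 0.10, limma, adjusted p = 0.0393), a call lost in 13 of 25 alternatives. Reads of Rps27l per read of Rps27 had geometric means of 6.38 in KO MEST, 7.38 in WT MEST, 7.29 in KO sham and 2.54 in WT sham libraries. These ratios rest on the 23 to 63 reads counted for Rps27 in a library, which are no measure of its mRNA. Exact permutation tests of these ratios are part of the 8 over which p-values of the Rpl22l1 ratio were adjusted. No result is drawn from them. Of 12 other p53 target genes, none passed in KO sham against WT sham, where 8.58% of all genes were higher and 6.83% lower. In WT MEST against WT sham 4 were higher and 1 lower, where 12.3% and 12.2% of all genes were.

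**Figure D4:**
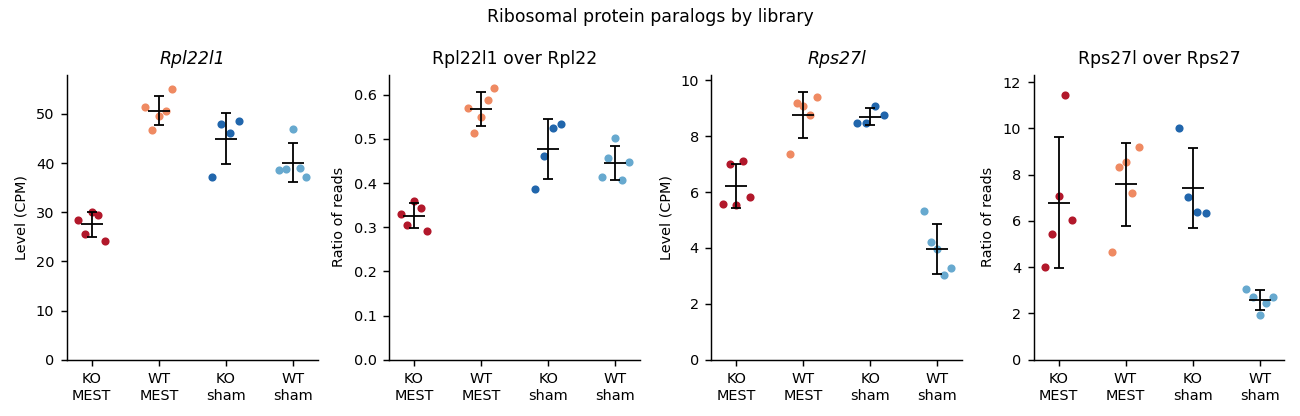
Level in CPM of Rpl22l1 and Rps27l and the ratio of their reads to those of Rpl22 and Rps27 in each library (points), with the mean and SD (bars), in the KO MEST, WT MEST, KO sham and WT sham groups. Rpl22l1 and its ratio are lowest in KO MEST (24.2 to 30.1 CPM), and Rps27l is lowest in WT sham (3.02 to 5.33 CPM). Reads of Rps27 are no measure of its mRNA, so no result is drawn from the ratio of Rps27l to Rps27.

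Summed over the 77 canonical genes, the members took 1.08 ± 0.0531% of the reads in genes in KO MEST, 1.09 ± 0.0457% in WT MEST, 1.14 ± 0.0829% in KO sham and 0.990 ± 0.0454% in WT sham tissue (SD). The 31 small subunit genes summed to 0.448 ± 0.0196%, 0.459 ± 0.0207%, 0.484 ± 0.0379% and 0.429 ± 0.0223% in these groups. The 46 large subunit genes summed to 0.628 ± 0.0338%, 0.627 ± 0.0251%, 0.660 ± 0.0452% and 0.561 ± 0.0236%. KO sham library 3 was the highest of all 19 in both sums, with 0.540% and 0.726%. The ratio of small to large was 0.698 to 0.725 in KO MEST, 0.726 to 0.743 in WT MEST, 0.723 to 0.743 in KO sham and 0.746 to 0.779 in WT sham libraries, so WT sham did not overlap the others. The order of the groups was another over the 17 canonical genes with at least 80% unique windows: for these the log2 ratio of KO sham to WT sham was 0.086, where it was -0.061 over all canonical genes, and that of WT MEST to WT sham was 0.051, where it was -0.061.

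**Figure D5:**
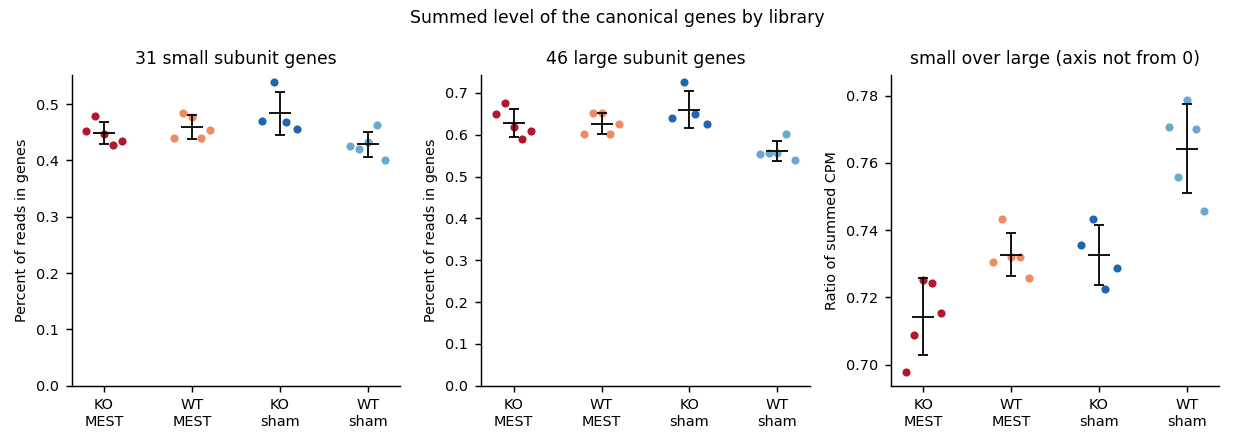
Summed level of the 31 small and 46 large canonical subunit genes, in percent of the reads in genes (axes from 0), and the ratio of the sums (axis not from 0), in each library (points) with the mean and SD (bars) of the KO MEST, WT MEST, KO sham and WT sham groups. The sums are lowest and the ratio is highest in WT sham, where the ratio is 0.746 to 0.779.

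The KO sham libraries fell into a pair for some members. Rplp1 had 191 and 135 CPM in libraries 2 and 3, against 316 and 308 CPM in libraries 4 and 5, where KO MEST held 316, 261, 207, 206 and 178, WT MEST 267 to 325 and WT sham 237 to 284 CPM. Rplp2, its partner in the stalk, had 70.9 and 68.1 CPM in KO sham libraries 2 and 3 and 122 and 120 CPM in 4 and 5, with 124, 110.2, 80, 73.7 and 73.2 CPM in KO MEST. For both stalk genes the ranges of KO sham and KO MEST spanned all group means. Rpl36, a 60S protein named here after its values were seen, had 37.2 and 28.2 against 72.7 and 58.3 CPM. In the other direction, Rps24 had 349 and 457 CPM in libraries 2 and 3 and 261 and 280 CPM in 4 and 5. Rps10 and Rps13 were also lower in libraries 2 and 3, and Rps6 was higher, with the values given above. Of the 79 members of at least 10 CPM, libraries 2 and 3 lay below 4 and 5 in 15 (19.0%) and above in 37 (46.8%), where 24.2% and 27.4% of all genes did. The log2 ratio of the pairs had a Spearman correlation of -0.50 with transcript GC content over these members and -0.38 over 10201 genes, given as a description only. Members varied more in KO sham than elsewhere: their median coefficient of variation was 9.68% there, where it was 6.22% in KO MEST, 5.99% in WT MEST and 6.68% in WT sham, and over all genes of that level it was 7.97% in KO sham and 6.59 to 7.02% in the other groups.

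Other parts of the translation machinery, from lists chosen with earlier results of these data known, are given by their counts. Of 6 genes that work with the ribosome but fall outside the naming rule, 3 were higher in KO sham than in WT sham tissue and 0 lower. Among them were Fau, made as a fusion with the 40S protein S30, with a log2 fold change of 0.76 (SE 0.09), and Gnb2l1, the 40S scaffold Rack1, with 0.32 (SE 0.06). In WT MEST over WT sham 4 of them were higher, Fau by 0.75 (SE 0.07), and in KO MEST over KO sham 0 passed. Of 51 genes of ribosome biogenesis, 1 was higher and 7 were lower in KO sham than in WT sham tissue, where 8.58% and 6.83% of all genes were. In WT MEST over WT sham 5 were higher and 19 lower, where 12.3% and 12.2% of all genes were. Those that fell in WT MEST included Gnl2 (log2 fold change -0.45, SE 0.06), Nop14 (-0.52, SE 0.08) and nucleolin, Ncl (-0.41, SE 0.06). In the difference of seizure effects 12 of the 51 were higher in KO mice and 1 lower, where 8.85% and 9.68% of all genes were. In KO MEST over WT MEST 6 biogenesis genes were higher and 0 lower, where 4.94% and 4.92% of all genes were.

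Elongation factors were mixed. Of 9, 4 were higher and 2 lower in KO sham over WT sham, and again in WT MEST over WT sham, with the shares of all genes as above. Eif5a, which helps ribosomes through stretches of proline, had log2 fold changes of 0.43 (SE 0.07) and 0.27 (SE 0.05) in these comparisons, and Eef2, which moves the ribosome along the mRNA, -0.24 (SE 0.05) and -0.25 (SE 0.04). Of 35 initiation factors, 7 were higher and 5 lower in KO sham over WT sham (8.58% and 6.83% of all genes), and 6 higher and 10 lower in WT MEST over WT sham (12.3% and 12.2% of all genes). In the second of these Eif5b, which joins the subunits, had -0.61 (SE 0.05). In KO MEST over KO sham none of the elongation, initiation or biogenesis genes passed, and none of the 21 genes that control ribosomal protein synthesis did, where 0.762% of all genes were higher and 0.601% lower. For KO MEST over WT MEST, 3 of those 21 were higher and 0 lower (4.94% and 4.92% of all genes). Among them were the S6 kinase Rps6kb2 (0.47, SE 0.12) and Tsc2, an inhibitor of mTOR signalling (0.22, SE 0.05). In KO sham over WT sham 0 of the 21 were higher and 2 lower (8.58% and 6.83% of all genes). In WT MEST over WT sham 1 was higher and 3 were lower (12.3% and 12.2% of all genes). Rps6kb2, lower in both, had -0.48 (SE 0.10) in KO sham over WT sham and -0.58 (SE 0.10) in WT MEST over WT sham.

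Markers of other cell types were counted in the same fits. In KO sham over WT sham, where 8.58% of all genes were higher and 6.83% lower, 1 of 6 neuron, 1 of 6 oligodendrocyte, 1 of 6 microglia and 1 of 5 meningeal fibroblast markers were lower, 1 of 5 endothelial markers was higher and 1 lower, and none of the 6 astrocyte and 5 choroid plexus markers passed. In WT MEST over WT sham, where 12.3% and 12.2% of all genes were, 3 neuron markers were higher and 1 lower, 2 astrocyte markers higher and 1 lower, 2 meningeal fibroblast markers higher and 1 lower, and 1 endothelial marker higher. There 1 microglia marker and the 1 red blood cell marker tested were lower, and no oligodendrocyte or choroid plexus marker passed. The neuron markers summed to 7937 to 8528 CPM in KO MEST, 7673 to 8466 in WT MEST, 7896 to 8337 in KO sham and 7482 to 7893 in WT sham libraries. The meningeal fibroblast markers summed to 131 to 169, 131 to 156, 138 to 169 and 154 to 193 CPM, and the choroid plexus markers to 1027 to 1437, 1089 to 1907, 1165 to 1842 and 873 to 1424 CPM, in the same order of groups. Of 5 red blood cell markers 3 were listed at 0 in all libraries. The part of these in the members' changes was not tested.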

How the data were processed

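Stranded libraries of polyadenylated RNA were sequenced as read pairs. Per the paper and processing notes, trimming used Trimmomatic 0.39, rRNA reads were removed (SortMeRNA), and HISAT2 2.2.1 placed the rest on mm10. featureCounts (Subread 2.0.3) counted reads per gene, and DESeq2 1.36.0 normalized them in a WT table and a KO table. Strand and multimapper settings are not given in the sources used here. The deposited values are a signal, counts over a size factor. Dividing each column by its smallest positive value gave whole reads for 100% of values (tolerance 0.01). Levels were rescaled by each library's own total. Dropped were 27 rows whose symbols had become dates (at most 0.384% of a library). The authors' fold change and p-value columns were not used.

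limma 3.58.1 (R 4.3.3) was fitted to log2(CPM + 0.1) for genes reaching 0.2 CPM in enough libraries to fill the smaller of the groups compared, with Benjamini-Hochberg adjustment over all genes and a threshold of 0.05. This scale understates changes of low genes. Nothing in the labels pools mice, and p-values measure the spread between these libraries. Paralog ratios had exact permutation tests. Named members were the paralogs and their partners, stalk genes, Rpsa, Rps6, the highest of each subunit per kb, and up to 6 per direction and comparison that passed with a mean of at least 10 CPM; of other lists, up to 3 per direction with the smallest p. Members and lists were chosen with earlier results of these data known. Alternatives were other scalings, pseudocounts and filters, thinned reads, a correction for length, edgeR 4.0.16 and DESeq2 1.42.0 on the whole reads, and libraries left out. A GC correction and leaving out KO sham 2 and 3 together were chosen after seeing the data. Some named genes are not reported here. The fit was tested on simulated data.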

Additional observations from a re-analysis of the deposited data

Results flagged for a closer look

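The seizure response differed between the genotypes, by the interaction test in limma over 19 libraries, in 16 of the 34 members named here and tested, 14 lower and 2 higher in KO mice, where 9.68% and 8.85% of all 16596 genes were. Most of these members are named because they passed in these comparisons, this one included, so their count is no result. The difference of log2 fold changes, KO minus WT, was -1.64 for Rps27l, -1.25 for Rps14, -1.15 for Rpl39, -1.05 for Rpl22l1, -0.88 for Rpl38, -0.85 for Rps19, -0.85 for Rps2 and -0.82 for Rpl37rt. It was -0.81 for Rps27a, -0.77 for Rpl41, -0.69 for Rpl18, -0.65 for Rpl9, -0.63 for Rps13 and -0.49 for Rps10, and 0.29 for Rpsa and 0.38 for Rps26. All of these use the WT sham libraries, which stood apart from the other groups.

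In 8 of 144 sets of values, each 1 group of 4 or 5 libraries, 1 library lay far from the others, and chance alone flags about 1 in 20 such sets. They were Rpl22 in WT MEST 4 (86.0 CPM, others 89.5 to 90.8), Rpl22l1 in WT sham 3 (47.0 CPM, others 37.1 to 38.9), Rpl35 in WT sham 4 (111 CPM, others 94.9 to 98.0), Rpl7l1 in KO sham 3 (54.1 CPM, others 47.5 to 48.6) and Rplp0 in KO MEST 2 (200.2 CPM, others 155 to 166). The others were Rplp2 in WT sham 4 (130.1 CPM, others 111 to 116), Rps24 in WT MEST 5 (309 CPM, others 272 to 278) and the summed small subunit genes in KO sham 3 (5397 CPM, others 4558 to 4699.9).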

How the results depend on the processing

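Of 72 calls of named members, 55 passed in every alternative, 17 were lost in some and 0 changed sign. For KO sham over WT sham, the members' median was 0.24, and 0.16 with the length trend removed; 6 members were lower without KO sham 2 and 3. For KO MEST over WT MEST, 7 members were higher, and 3 with all 19 libraries in the fit. For KO MEST over KO sham, 5 were lower, 3 with no filter, 8 with DESeq2 and 8 with all 19 libraries; without KO sham 2 and 3, 1 was higher. For the difference of seizure effects, 2 were higher, 1 with no filter, 4 with the length trend removed and 6 without KO sham 2 and 3. Over all genes, DESeq2 called 546 higher and 367 lower in KO MEST over KO sham, where limma called 123 and 97 and edgeR 140 and 81. With only members of at least 80% unique windows (against annotated transcripts, in place of the genome), the summed large subunit log2 ratio of WT MEST over WT sham was 0.091, against 0.16, and the log2 ratio of small over large was 0.086 in KO sham over WT sham and 0.051 in WT MEST over WT sham, both -0.061 over all canonical genes, and -0.0038 in KO MEST over WT MEST, where it was -0.037. The cause was not tested.

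With each library left out, KO MEST over WT MEST had 2 to 8 higher members and a median of -0.037 to 0.0076, above 0 without KO MEST 4 (0.001), WT MEST 2 (0.0076) or WT MEST 3 (0.001). WT MEST over WT sham had 5 to 9 lower, KO MEST over KO sham 3 to 5 lower, and the difference 1 to 6 higher. Same-numbered libraries showed little shared deviation (r from -0.06 to 0.09, with 1 value of 0.26), and the main fits did not pair mice by number. Such correlations cannot exclude that same-numbered mice were handled together. With the replicate block, KO MEST over WT MEST had 4 higher and KO MEST over KO sham 3 lower members. With the block and the length trend removed, the median of KO sham over WT sham was 0.15, KO MEST over KO sham had 2 lower and the difference 5 higher members.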
